A study of Mus musculus with 45 samples.

Results

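The 44 genes described here encode proteins that assemble the small ribosomal subunit. They were chosen as a list of symbols, by no threshold on their values but with earlier results of these data known, and all 44 were found among the 55385 genes of the deposited tables. All 44 also passed the filter on low counts in each comparison below. Their RNA was measured in 18 libraries of mouse embryos and embryonic stem (ES) cells in which both *Gabpa* alleles carry a dTAG degron, a tag through which the small molecule dTAG13 brings about degradation of the GABPA protein. The controls carry the tagged alleles too and received the vehicle DMSO. Late two-cell embryos (L2C, 3 libraries with DMSO and 3 with dTAG13) were exposed from 6 to 30 h post fertilization (hpf) to 1 µM dTAG13. Morulae (2 and 2) were exposed to 1 µM from 42 hpf, and E4.5 inner cell masses (ICM, 2 and 2) were exposed to 1 µM from the early blastocyst. The labels call these libraries E4.5 ICM, while the study describes its ICM for RNA-seq as collected at the mid-blastocyst stage. 2iES cells (2 and 2), ES cells derived by picking single clones and grown in naive medium, received 0.5 µM for 24 h. Embryos came from in vitro fertilization, and the ICM was freed of its outer layer by immunosurgery, which leaves epiblast (EPI) and primitive endoderm (PrE) together. No wild-type sample treated with dTAG13 was among these RNA libraries, so an effect of the molecule itself and one of GABPA loss cannot be told apart. The study does report that dTAG13 left the development of wild-type embryos unaffected. The dose differs only between 2iES cells and the embryo stages, while the duration differs between the stages.

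The small subunit is built in the nucleolus. As RNA polymerase I transcribes the long ribosomal RNA precursor, the UTP-A complex binds its leading spacer first, followed by UTP-B, the U3 small nucleolar ribonucleoprotein (snoRNP) and the MPP10 complex, which together form the small subunit processome. Nucleases, a GTPase and helicases then cut and remodel the precursor, and pre-40S factors carry the particle to the cytoplasm for its last cleavage. GABPA belongs to the ETS family of transcription factors, whose binding word contains GGAA.

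Promoter sequence was available from RefSeq (GRCm38.p6, 250 bases before to 50 after the start of each gene) for 35 of the 44 genes. *Utp6*, *Rrp12*, *Utp23*, *Fcf1*, *Dcaf13*, *Nol6*, *Wdr36*, *Fbl* and *Tbl3* had no entry. The ETS word CCGGAAGT, searched on both strands (ACTTCCGG on the other), was present in 12 of the 35 promoters (34.3%). It was present in 3.89% of all 32851 windows in the table, in which some genes have several starts, and in 7.33% of the 14658 windows of genes tested at L2C. The 12 genes are *Bms1*, *Dhx37*, *Emg1*, *Heatr1*, *Ltv1*, *Nol10*, *Pwp2*, *Tsr1*, *Utp3*, *Utp4*, *Wdr3* and *Wdr46*. Of these, *Emg1*, *Ltv1*, *Pwp2*, *Utp3* and *Utp4* hold it at 2 places, and in *Wdr46* 2 copies on opposite strands overlap. A match is a stretch of letters and was not tested as a binding site. A selection of windows, from members with large changes at one stage or more, is given here 5′ to 3′ along the strand of the gene, with the word in capitals.
*Pwp2*, chr10:78185143-78185190, minus strand, word 21 bases before the start: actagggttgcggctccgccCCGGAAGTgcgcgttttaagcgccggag
*Utp3*, chr5:88554218-88554265, plus strand, 224 bases before: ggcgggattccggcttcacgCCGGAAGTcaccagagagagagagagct
*Utp3*, chr5:88554304-88554351, plus strand, 138 bases before: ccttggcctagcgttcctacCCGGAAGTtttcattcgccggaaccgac
*Bms1*, chr6:118419499-118419546, minus strand, 109 bases before: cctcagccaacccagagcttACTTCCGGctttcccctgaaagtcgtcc
*Emg1*, chr6:124712271-124712318, minus strand, 120 bases before: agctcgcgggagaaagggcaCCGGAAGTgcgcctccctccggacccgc
*Emg1*, chr6:124712195-124712242, minus strand, 44 bases before: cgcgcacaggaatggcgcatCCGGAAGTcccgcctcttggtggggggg
*Ltv1*, chr10:13193208-13193255, minus strand, 98 bases before: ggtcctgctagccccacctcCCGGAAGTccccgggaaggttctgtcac
*Dhx37*, chr5:125434085-125434132, minus strand, 64 bases before: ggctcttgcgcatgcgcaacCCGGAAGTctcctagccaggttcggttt
*Wdr46*, chr17:33940641-33940688, plus strand, first of the overlapping copies, 62 bases before: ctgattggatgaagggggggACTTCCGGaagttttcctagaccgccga

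Library totals ran from 9457889 to 12382653 expected counts in morulae and from 18265991 to 27660050 in the other stages. *Gabpa* RNA itself was not lowered by dTAG13, which acts on the protein. Its mean was 109 ± 17.1 FPKM with DMSO and 162 ± 8.84 with dTAG13 at L2C (SD, n = 3), so its RNA does not check the degradation. The labelled identities were compared with marker lists. The 5 late two-cell markers summed to 159 to 516 FPKM at L2C and to at most 5.51 in morulae and ICM. They also reached 113 in 2iES cells with dTAG13. The 8 EPI markers summed to 882 to 888 FPKM in control ICM and 623 to 783 in control 2iES cells, where *Gata6*, *Pdgfra* and *Sox7* of the 5 PrE markers lay under 0.1 FPKM. In the ICM the markers moved with the treatment. The 7 trophectoderm (TE) markers summed to 73.0 to 78.2 FPKM with DMSO and to 850 to 856 with dTAG13, all 7 passing the test as higher. The EPI list fell to 525 to 538, all 8 passing as lower, and the 5 PrE markers went from 242 to 247 FPKM to 323 to 328, with 3 higher and 2 lower. The study describes RNA-seq replicates as biological, but the labels name no separate cultures or litters, and the p-values measure the spread between these libraries. That spread was small in the ICM, where replicates differed by 1.62 and 1.69 times the variance that sampling gives, against 8.20 to 16.2 times in L2C embryos and morulae, 16.1 in control 2iES cells and 2.86 in treated 2iES cells.

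In vehicle controls all 44 genes reached at least 1 FPKM, a level scaled by transcript length, at each stage. Their median was 78.6 FPKM at L2C, 38.4 in morulae, 49.5 in ICM and 40.5 in 2iES cells, against 8.46 to 10.4 for all genes at 1 FPKM or more. The highest levels belonged to *Fcf1*, a nuclease that cuts the precursor on either side of the 18S sequence, to the methyltransferase *Emg1*, and to *Nop58* and *Nop56*, core proteins of box C/D snoRNPs. *Fcf1* had 907 ± 59.9 FPKM at L2C (SD, n = 3). The lowest were *Nol6*, *Rrp12*, *Dhx37* and, in 2iES cells, *Pwp2*. *Nol6* had 1.38 ± 0.195 FPKM at L2C (n = 3).

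**Figure D1:**
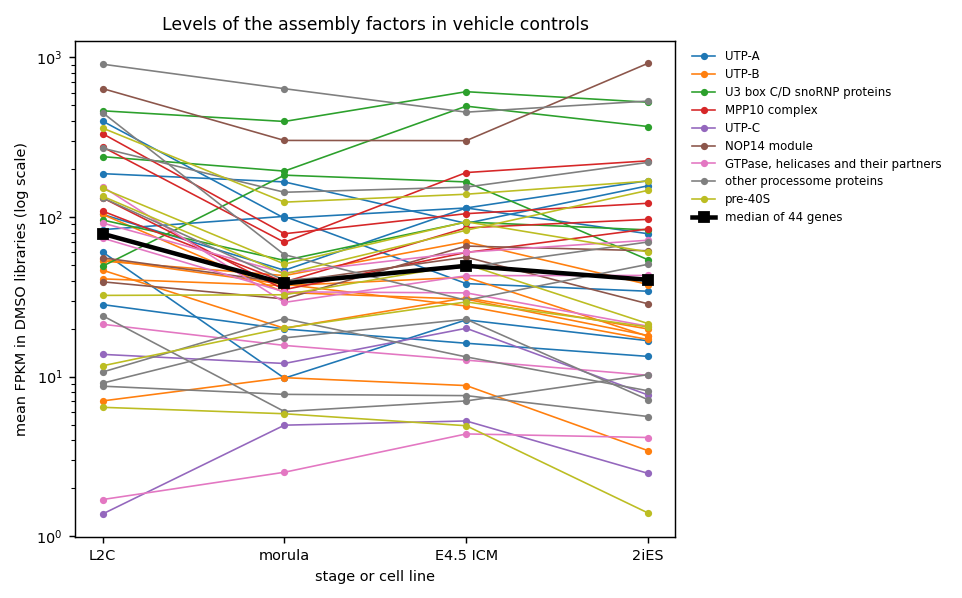
Mean FPKM of each of the 44 genes in DMSO libraries (log axis) by stage, coloured by sub-complex, with the median in black. The median lies at 78.6 FPKM at L2C and between 38.4 and 49.5 at the other stages, while single genes span from 1.38 to 919 FPKM.

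Between control L2C embryos and morulae, 27 of the 44 genes fell and 5 rose (edgeR's quasi-likelihood test, Benjamini-Hochberg adjusted p under 0.05). Among all 17990 genes tested 39.8% fell and 30.4% rose. The median log2 change was -0.79 for the members and -0.37 for all genes. All 4 genes of the MPP10 complex fell, as did 4 of 6 UTP-A genes and 3 of 5 genes of the GTPase and helicase group. *Utp23*, a processome protein with a PIN domain, had 417, 483 and 453 FPKM in L2C controls and 55.3 and 61.0 in morula controls, a log2 change of -2.95 ± 0.17 (SE, adjusted p = 1.96e-07). *Utp15* of UTP-A changed by -2.56 ± 0.18 (adjusted p = 6.89e-07) and the helicase *Ddx52* by -2.28 ± 0.18 (adjusted p = 1.64e-06). The direction was opposite for *Fbl*, the 2′-O-methyltransferase fibrillarin, which had 48.3, 48.5 and 50.7 FPKM at L2C and 214 and 152 in morulae. Its log2 change was 1.97 ± 0.17 (adjusted p = 3.08e-06), *Nol6* of UTP-C rose by 1.92 ± 0.26 (adjusted p = 7.59e-05) and *Wdr46* by 1.03 ± 0.21 (adjusted p = 0.00140). The libraries of the 2 stages did not overlap for any of these 6 genes. Of the 31-base words of *Fbl* 21.8% also occur in other genes, mostly *Tulp4*.

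From morula to ICM controls 8 members fell and 16 rose, where 30.3% and 31.4% of 15266 genes did. Scaling by library totals gave 7 and 23, and moved the median of all genes from 0.05 to 0.32. The members' median was 0.11, and 0.07 to 0.22 when 1 library was left out, which also moved the counts widely. *Nop56*, which shares 22.4% of its words with other genes, rose by 1.20 ± 0.11 on the log2 scale (adjusted p = 3.83e-04), *Utp4* by 1.02 ± 0.16 (adjusted p = 0.00303) and *Imp4* of the MPP10 complex by 1.02 ± 0.20 (adjusted p = 0.00704). *Nol11* of UTP-A changed by -1.64 ± 0.11 (adjusted p = 1.73e-04), *Utp23* by -1.21 ± 0.13 (adjusted p = 7.59e-04) and *Fcf1* by -0.82 ± 0.12 (adjusted p = 0.00232). From ICM to 2iES controls 11 fell and 16 rose, where 33.7% and 31.3% of 15660 genes did, but scaling by library totals gave 22 and 9, with the median of the members moving from 0.00 to -0.39 and that of all genes from -0.05 to -0.44. Both medians thus moved alike with the scaling. The 3 members with the largest rise kept their sign under each alternative that was run. *Emg1* rose by 1.96 ± 0.08 (adjusted p = 5.40e-05) from 310 and 291 FPKM to 952 and 886, *Utp23* by 1.20 ± 0.12 (adjusted p = 4.86e-04) and *Nob1*, the nuclease of the last cytoplasmic cleavage, by 1.18 ± 0.14 (adjusted p = 9.39e-04). *Rrp12*, an export factor, changed by -1.43 ± 0.18 (adjusted p = 0.00114), *Wdr46* by -1.30 ± 0.15 (adjusted p = 8.66e-04) and *Fbl* by -1.24 ± 0.09 (adjusted p = 2.15e-04).

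At L2C, dTAG13 lowered 18 of the 44 genes and raised none. Of the 17421 genes tested, 7.24% were lower and 1.32% higher. The estimate was negative for 40 of the 44 genes. Their median log2 fold change was -0.38, against 0.02 for all genes. At the cut-offs the study used, which add a fold of 2 and a mean of 1 FPKM, 6 genes were lower, and 0 were higher, where 3.63% and 0.476% of genes were. The FPKM cut-off was applied here to the larger of the 2 group means, with edgeR in place of the study's DESeq2. FPKM of the groups did not overlap for 27 members with dTAG13 lower (12.9% of all genes) and 2 with dTAG13 higher (14.8%). Upper-quartile scaling gave 14 lower and 0 higher, and moved the median of all genes to 0.14 and that of the members to -0.26. The 5 oocyte markers summed to 1403 to 1434 FPKM with DMSO and 1774 to 2084 with dTAG13, with 1 of 5 higher by the test, and their part in the result was not tested.

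The members that fell were spread over the pathway. In UTP-B, 4 of 6 fell, namely *Pwp2*, *Utp6*, *Wdr3* and *Utp18*, and 2 of 6 fell in UTP-A (*Utp4* and *Wdr75*). *Pwp2*, a scaffold protein with tandem propellers, had 7.97, 6.29 and 6.88 FPKM with DMSO and 3.47, 2.39 and 2.40 with dTAG13. Its log2 fold change of -1.43 ± 0.20 (SE, adjusted p = 0.00115) was the largest of the 44, and its groups did not overlap. *Utp6* had 119, 120 and 73.5 FPKM with DMSO and 55.1, 57.6 and 59.4 with dTAG13 (log2 fold change -0.84 ± 0.15, adjusted p = 0.00476). The third DMSO library was lower than the other two for this gene, yet above each dTAG13 library.

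Of the 4 genes of the MPP10 complex only *Utp3* (Sas10) fell. It had 110, 106 and 111 FPKM with DMSO and 45.1, 43.3 and 52.5 with dTAG13, a log2 fold change of -1.29 ± 0.10 (adjusted p = 2.57e-05). *Imp3*, *Imp4* and *Mphosph10* had estimates of -0.29, -0.26 and -0.10 and did not pass. None of the 4 U3 snoRNP protein genes passed, with estimates from -0.37 for *Fbl* to 0.07 for *Nop56*. *Utp3* and *Emg1*, which both carry the ETS word at 2 places, were among the members with the smallest p at this stage. *Ltv1*, *Pwp2* and *Utp4*, also with 2, fell, while *Wdr46*, with 2 overlapping copies, did not pass. *Dhx37*, *Heatr1* and *Nol10*, with 1 copy each, did not pass either.

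*Emg1*, which methylates a hypermodified base of 18S rRNA, had 618, 689 and 608 FPKM with DMSO and 313, 290 and 324 with dTAG13. This was a log2 fold change of -1.12 ± 0.09 (adjusted p = 2.04e-05), while its partners *Nop14* and *Noc4l* had -0.24 and -0.17 and did not pass. *Nol6*, the larger UTP-C protein, had 1.58, 1.19 and 1.37 FPKM with DMSO and 0.710, 0.770 and 0.640 with dTAG13 (-1.04 ± 0.26, adjusted p = 0.0349). The *Nol6* call rests on 62 to 151 counts a library and was lost when any library was left out, with adjusted p up to 0.130, and under 4 further settings.

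In the GTPase and helicase group 3 of 5 fell. The GTPase *Bms1* had 22.2, 22.1 and 19.6 FPKM with DMSO and 11.1, 8.97 and 10.8 with dTAG13, a log2 fold change of -1.15 ± 0.12 (adjusted p = 1.99e-04). Its partner *Rcl1* fell by 0.36 and *Ddx52* fell by 0.44 on the same scale. *Dhx37*, the helicase that releases U3, had a large estimate of -1.28 ± 0.36 but an adjusted p of 0.0541. It had 2.06, 1.43 and 1.61 FPKM with DMSO and 1.44, 0.560 and 0.250 with dTAG13, so its groups overlapped. Among the other processome proteins *Utp23*, *Fcf1*, *Dcaf13* and *Utp20* fell. *Utp23* had 417, 483 and 453 FPKM with DMSO and 205, 238 and 205 with dTAG13 (-1.13 ± 0.11, adjusted p = 7.45e-05). Of its 31-base words 18.7% also occur in other transcripts, the largest share in antisense *Gm34678*, and the libraries do not keep strand.

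Among pre-40S factors *Tsr1*, a GTPase-like protein, and *Ltv1*, which must leave the particle before it matures, fell. *Tsr1* had 36.2, 34.8 and 26.1 FPKM with DMSO and 22.2, 19.2 and 17.0 with dTAG13 (-0.86 ± 0.14, adjusted p = 0.00334). It shares 33.2% of its 31-base words with other genes, chiefly antisense *Srr*. *Nob1*, *Pno1*, *Bysl* and *Rrp12* did not pass, with estimates from -0.40 to 0.13.

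**Figure D2:**
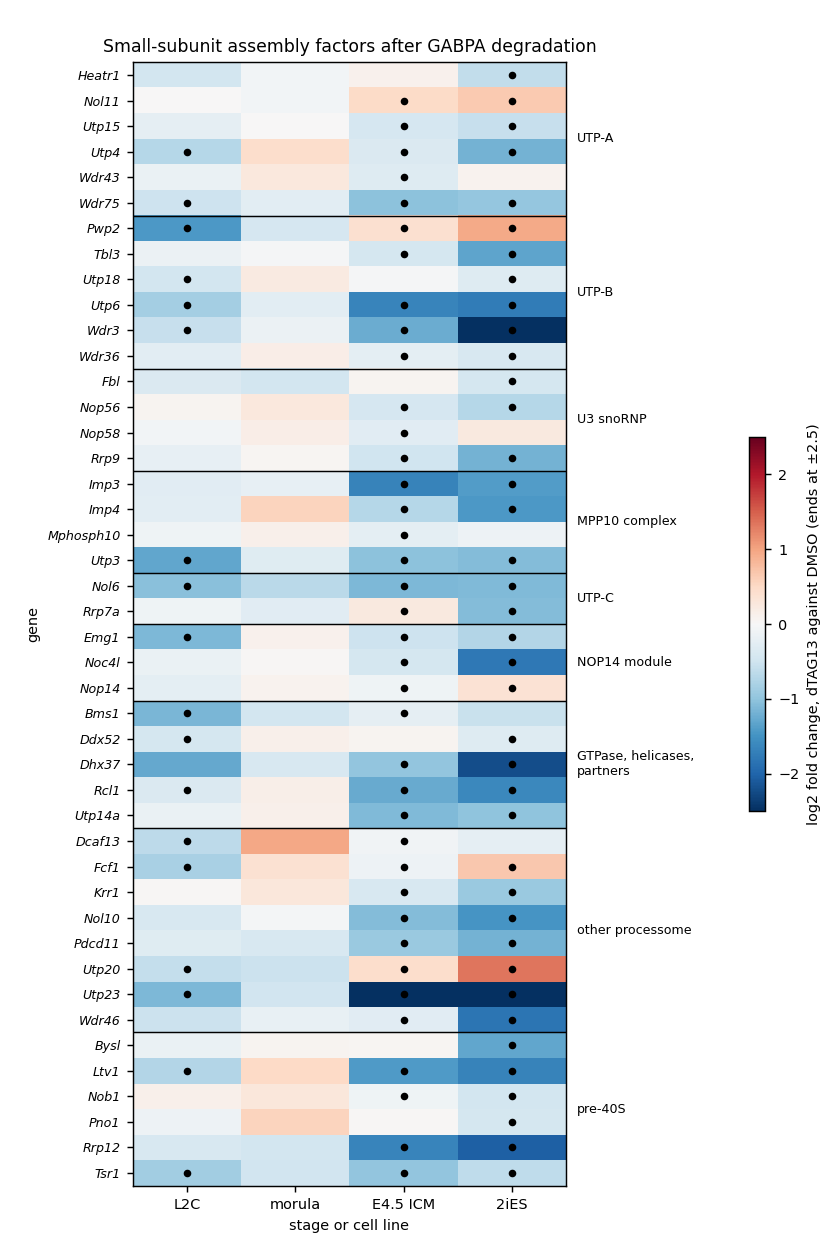
Log2 fold change of each of the 44 genes with dTAG13 against DMSO (colour, ending at ±2.5) by stage, grouped by sub-complex, with a dot where the adjusted p is under 0.05. Dots mark 18 genes at L2C, 0 in morulae, 38 in E4.5 ICM and 39 in 2iES cells.

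In morulae none of the 44 genes passed the test with edgeR, and DESeq2 called 1 higher and 0 lower. At an unadjusted p under 0.05 there were 9, where 1854 of all 13667 genes were. At the adjusted threshold 0.205% of all genes were lower and 0.161% higher. The members' median was 0.01, with estimates from -0.68 for *Nol6* to 0.96 for *Dcaf13*. *Dcaf13*, a processome protein that also acts as a ubiquitin ligase adaptor, had 138 and 148 FPKM with DMSO and 224 and 224 with dTAG13 (0.96 ± 0.21, adjusted p = 0.0682). *Imp4* shows the spread of these libraries, with 43.1 and 96.0 FPKM in the DMSO samples. When 1 library was left out, the members' median lay between -0.06 and 0.14.

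In the ICM 34 members were lower and 4 higher with dTAG13, but 38.5% and 38.4% of the 15840 genes tested were too. The members' median log2 fold change on counts was -0.41, against 0.01 over all genes. The median of their FPKM ratios was smaller in size, as given below. Library totals gave 31 lower and 9 higher, and upper-quartile scaling 29 and 10, with a median of -0.30 for the members and 0.11 for all genes. At the study's cut-offs 12 members were lower and 0 higher, where 13.2% and 12.1% of genes were. The FPKM of 31 members was lower in both dTAG13 libraries than in either control (39.3% of all genes) and that of 11 higher (45.5%). The TE, EPI and PrE markers moved with the treatment as given above, and their part in the result was not tested. In such bulk samples fewer cells of a type and less RNA per cell cannot be told apart, and cells were not counted in the files used here. The study states that it chose this collection time because the EPI cell number did not yet differ between treatments.

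*Utp23* had the largest change in the ICM, with 29.0 and 31.2 FPKM with DMSO and 5.96 and 5.32 with dTAG13 (log2 fold change -2.58 ± 0.12, adjusted p = 1.55e-20). All 4 MPP10 complex genes fell. *Imp3*, which anchors U3 to the precursor, had 107 and 103 FPKM with DMSO and 36.7 and 31.9 with dTAG13 (-1.67 ± 0.06, adjusted p = 2.64e-24), although 17.0% of its 31-base words occur in another transcript. In UTP-B, *Utp6* had 31.1 and 30.1 FPKM with DMSO and 11.6 and 9.69 with dTAG13 (-1.66 ± 0.06, adjusted p = 5.00e-24). *Wdr3* of the same complex had 27 and 28.5 with DMSO and 9.17 and 10.6 with dTAG13 (-1.24 ± 0.06, adjusted p = 6.92e-21). The groups did not overlap for any of these genes.

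Late factors changed as well in the ICM. *Rrp12* had 4.74 and 5.11 FPKM with DMSO and 1.56 and 1.69 with dTAG13 (-1.66 ± 0.12, adjusted p = 2.15e-15). *Ltv1* had 91.9 and 95 with DMSO and 35.7 and 34.5 with dTAG13 (-1.42 ± 0.04, adjusted p = 1.34e-28). The pre-40S genes *Bysl* and *Pno1* had estimates of 0.04 and 0.02 and did not pass, so the group did not move as one. *Rcl1* had 60.0 and 60.3 FPKM with DMSO and 25.0 and 27.4 with dTAG13 (-1.26 ± 0.05, adjusted p = 8.43e-23). *Nol6* had 4.87 and 5.68 with DMSO and 2.60 and 2.42 with dTAG13 (-1.12 ± 0.10, adjusted p = 3.63e-12).

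The 4 members that rose in the ICM were *Nol11*, *Utp20*, *Pwp2* and *Rrp7a*. *Nol11* had 39.8 and 36.8 FPKM with DMSO and 58.5 and 50.2 with dTAG13 (0.47 ± 0.04, adjusted p = 4.97e-13). *Utp20*, a very large helical repeat protein, had 13.1 and 13.5 with DMSO and 17.8 and 21.1 with dTAG13 (0.43 ± 0.06, adjusted p = 8.08e-08). *Pwp2* had 8.44 and 9.17 with DMSO and 12.2 and 12.1 with dTAG13 (0.41 ± 0.06, adjusted p = 7.68e-07). With all 18 libraries in 1 fit the *Pwp2* estimate was 0.42 and its call was lost (adjusted p = 0.168). Counts and FPKM, which also depends on the transcript lengths RSEM assigned, gave opposite signs for *Wdr43* and *Nob1* among the called members. Both were called lower on counts, by -0.32 and -0.10, but the log2 ratio of their mean FPKM was 0.06. *Utp18*, which was not called, had a negative estimate on counts and mean FPKM of 70.0 with DMSO and 72.3 with dTAG13.

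In 2iES cells 34 members were lower and 5 higher, where 28.1% and 26.5% of the 15511 genes tested were. On counts the members had a median of -0.94 on the log2 scale, and all genes together had 0.03. Upper-quartile scaling gave 27 lower and 6 higher, and moved the median of all genes to 0.21. Of the 8 EPI markers 3 were lower and 1 higher. The 5 late two-cell markers summed to 8.91 to 53.8 FPKM with DMSO and 39.6 to 113 with dTAG13, with 1 higher. Of the PrE markers *Gata6* was higher, at a mean of 0.510 FPKM with dTAG13. Of the oocyte and TE markers 1 each was lower. The part of these markers in the result was not tested. At the study's cut-offs 21 were lower and 1 higher, where 15.6% and 12.4% of genes were. Both dTAG13 libraries lay below both controls for 37 members (36.9% of all genes) and above them for 6 (41.8%). All 6 pre-40S genes and both UTP-C genes fell, as did 5 of 6 in UTP-B.

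On counts *Wdr3* had the largest change of any member at any stage. It had 16.7 and 17.5 FPKM with DMSO and 1.76 and 0.830 with dTAG13, and a log2 fold change of -4.64 ± 0.25 on counts (adjusted p = 4.20e-05) and -3.72 as a ratio of mean FPKM. It still had 30 to 62 counts in the dTAG13 libraries, and 14.6% of its 31-base words occur in antisense *Spag17*. *Utp23* had 51.3 and 49.8 FPKM with DMSO and 3.45 and 2.52 with dTAG13 (-3.92 ± 0.17, adjusted p = 2.44e-05). By mean FPKM, 50.6 with DMSO and 2.99 with dTAG13, its change was larger than that of *Wdr3*, with 17.1 and 1.29. *Dhx37* had 5.62 and 2.7 with DMSO and 0.470 and 0.830 with dTAG13 (-2.22 ± 0.25, adjusted p = 5.60e-04). *Utp6* had 18.6 and 17.7 with DMSO and 5.69 and 6.95 with dTAG13 (-1.75 ± 0.14, adjusted p = 1.59e-04).

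*Wdr46* and *Noc4l*, at -0.28 and -0.43 in the ICM, were among the most changed members in 2iES cells. *Wdr46* had 7.92 and 6.43 FPKM with DMSO and 2.03 and 2.53 with dTAG13 (-1.82 ± 0.21, adjusted p = 5.76e-04). *Noc4l* had 72.3 and 50.7 with DMSO and 19.0 and 18.7 with dTAG13 (-1.79 ± 0.19, adjusted p = 4.51e-04). Among pre-40S factors *Rrp12* had 1.23 and 1.56 FPKM with DMSO and 0.320 and 0.380 with dTAG13 (-2.04 ± 0.26, adjusted p = 8.98e-04). *Ltv1* had 63.0 and 58.0 with DMSO and 20.2 and 17.9 with dTAG13 (-1.67 ± 0.12, adjusted p = 1.13e-04). The groups of all 4 genes were separate.

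Of the 5 members that rose in 2iES cells, *Utp20*, *Pwp2* and *Nol11* had also risen in the ICM. *Utp20* had 6.98 and 9.34 FPKM with DMSO and 20.7 and 21.5 with dTAG13 (1.33 ± 0.16, adjusted p = 7.89e-04). *Pwp2* had 3.09 and 3.80 with DMSO and 7.04 and 6.54 with dTAG13 (0.94 ± 0.17, adjusted p = 0.00350). *Fcf1* had 391 and 675 with DMSO and 858 and 857 with dTAG13 (0.67 ± 0.22, adjusted p = 0.0405). The *Fcf1* call was lost without either dTAG13 library (adjusted p 0.0540 and 0.124), and 31.1% of its 31-base words occur in *Gm11221*.

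**Figure D3:**
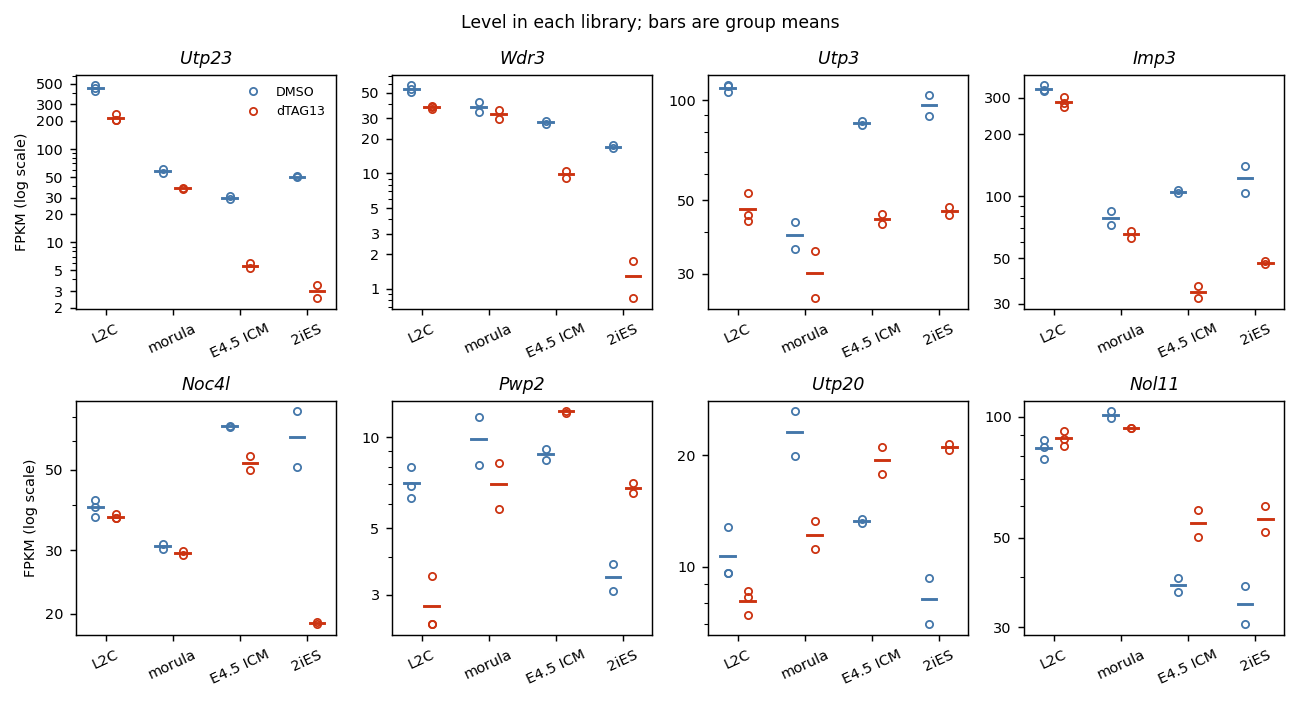
FPKM (log axis) of 8 members in each library, with DMSO in blue, dTAG13 in red and bars at the group means. *Utp23* falls from 451 to 216 FPKM at L2C and from 50.6 to 2.99 in 2iES cells, while *Pwp2* and *Utp20* lie lower with dTAG13 at L2C and higher in the ICM and 2iES cells.

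Over L2C, ICM and 2iES cells 11 members were lower at all 3, namely *Emg1*, *Ltv1*, *Nol6*, *Rcl1*, *Tsr1*, *Utp23*, *Utp3*, *Utp4*, *Utp6*, *Wdr3* and *Wdr75*. A further 16 were lower in the ICM and 2iES cells without passing at L2C. *Pwp2* and *Utp20* were lower at L2C and higher at the other 2. *Nol11* was the one member lower at none of them. The share of all genes with each of these patterns was not counted. At single stages 7.24% of genes were lower at L2C, 38.5% in the ICM and 28.1% in 2iES cells. The *Nol6* call at L2C was lost when any library was left out.

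The stages were compared by testing the difference of their effects. Between L2C and morula 6 members had a more negative effect at L2C and 0 a more positive one, where 2.96% and 0.206% of the 19860 genes tested did. The count of 6 was larger with no filter or with all 18 libraries in 1 fit. Over all genes 1189 of 34670 and 1268 of 21915 were then more negative at L2C. The members' median difference was -0.43, and -0.53 to -0.25 when 1 library was left out. The differences on the log2 scale were -1.68 ± 0.22 for *Dcaf13* (adjusted p = 0.00117), -1.29 ± 0.19 for *Emg1* (adjusted p = 0.00279) and -1.28 ± 0.24 for *Ltv1* (adjusted p = 0.00996). *Fcf1* had -1.27 ± 0.20 (adjusted p = 0.00332) and *Utp4* -1.21 ± 0.24 (adjusted p = 0.0152). The *Utp4* difference missed the threshold without the first dTAG13 library of either stage, at 0.0505 and 0.0506.

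Between L2C and ICM 10 members were more negative at L2C and 13 more positive, where 11.2% and 11.3% of the 20854 genes tested were. These fits share the L2C libraries with the previous ones. *Pwp2* differed by -1.83 ± 0.25 (adjusted p = 5.91e-04) and *Utp20* by -1.01 ± 0.16 (adjusted p = 0.00124), both lower at L2C and higher in the ICM. *Utp23* differed by 1.46 ± 0.18 (adjusted p = 2.39e-04), *Imp3* by 1.39 ± 0.12 (adjusted p = 3.67e-05) and *Rrp12* by 1.27 ± 0.23 (adjusted p = 0.00284), each falling further in the ICM.

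Between ICM and 2iES cells 6 members were more negative in the ICM and 17 in 2iES cells, where 21.8% and 20.1% of the 17657 genes tested were. These counts were 3 and 9 with all 18 libraries in 1 fit, and 2 to 8 and 13 to 27 when 1 library was left out, with 27 reached without the second 2iES DMSO library. *Wdr3* differed by 3.38 ± 0.22 (adjusted p = 1.17e-05), *Wdr46* by 1.52 ± 0.19 (adjusted p = 2.89e-04) and *Noc4l* by 1.33 ± 0.20 (adjusted p = 8.13e-04). *Utp23* differed by 1.32 ± 0.19 (adjusted p = 5.92e-04). *Rrp7a*, the UTP-C partner of *Nol6*, differed by 1.32 ± 0.22 (adjusted p = 0.00146) and was called higher in the ICM and lower in 2iES cells. *Rrp7a* shares 20.3% of its 31-base words with other genes, and its ICM estimate was 0.24 on counts and 0.58 as a ratio of mean FPKM.

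**Figure D4:**
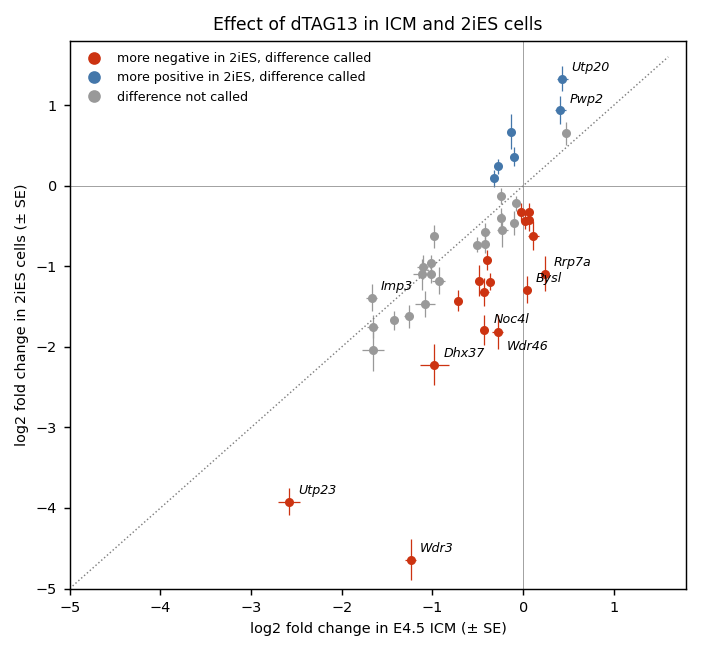
Log2 fold change of the 44 members in E4.5 ICM (horizontal) and 2iES cells (vertical), with standard errors and a dotted line of equal change. Red points (17) were more negative and blue points (6) more positive in 2iES cells by the test of the difference, and *Wdr3* lies farthest from the line.

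Members were then divided by the ETS word in their promoters. At L2C the 12 with the word had a median log2 fold change of -0.79, all 12 estimates were negative and 8 genes fell (66.7%). The 23 without it had a median of -0.17, and 5 fell (21.7%). Over all genes tested the shares called lower were 32.3% of 976 with the word in any window and 6.35% of 10650 without. The medians with and without the word were -0.17 and 0.12 in morulae, -0.74 and -0.32 in the ICM and -1.14 and -0.72 in 2iES cells. In the ICM 10 of 12 and 16 of 23 members fell, and in 2iES cells 10 of 12 and 17 of 23. For all genes the shares called lower were 63.0% and 38.2% in the ICM and 55.5% and 28.6% in 2iES cells. *Pwp2*, with the word at 2 places, rose at both of these stages. *Wdr3* carries 1 copy 7 bases past its start. The E-box CACGTG, the word of MYC and related factors, was in 11 of 35 member promoters (31.4%), in 7.15% of all windows and in 9.52% of those of genes tested at L2C. The word of NRF1 was in 2 (5.71%), against 0.971% and 1.85%. Both were looked for after the ETS word had been counted.

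**Figure D5:**
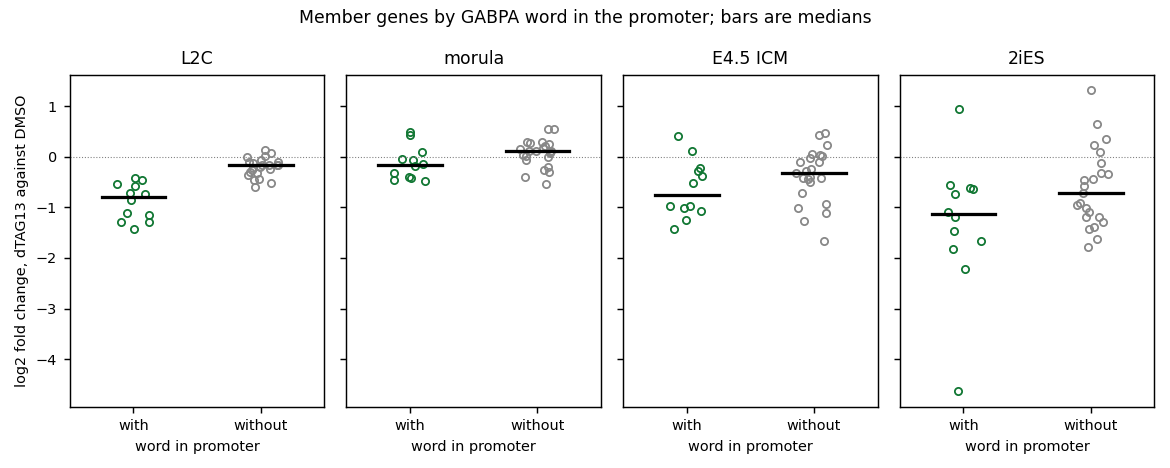
Log2 fold change with dTAG13 of the 35 members with a promoter entry, by stage, for 12 with and 23 without the ETS word, with bars at the medians. At L2C the medians are -0.79 and -0.17 and all 12 genes with the word lie below 0.

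A further 28 factors of small subunit assembly had 8 lower and 0 higher at L2C, 0 called in morulae, 19 lower and 4 higher in the ICM, and 17 lower and 5 higher in 2iES cells. Over all genes 7.24% were lower and 1.32% higher at L2C, 38.5% and 38.4% in the ICM and 28.1% and 26.5% in 2iES cells. The medians of the 28 were -0.32, -0.02, -0.42 and -0.52, against 0.02, -0.02, 0.01 and 0.03 for all genes. *Trmt112*, the activator of several methyltransferases including *Bud23*, had 300 and 272 FPKM with DMSO and 20.7 and 20.6 with dTAG13 in 2iES cells (log2 fold change -3.74 ± 0.13, adjusted p = 1.88e-05) and -1.83 ± 0.04 in the ICM (adjusted p = 5.14e-30). *Snu13*, the protein that binds the U3 RNA, had 544 and 553 FPKM with DMSO and 176 and 164 with dTAG13 in the ICM (-1.82 ± 0.03, adjusted p = 6.23e-36). At L2C *Dnttip2*, which works with *Esf1* late in processome assembly, had the largest called change, -0.83 ± 0.09 (adjusted p = 2.22e-04).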

How the data were processed

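RNA-seq libraries (SMART-Seq v4, Nextera XT, not stranded) were trimmed with Trimmomatic 0.39, aligned to GRCm38 with STAR and quantified with RSEM by the authors. They deposited expected counts, TPM and FPKM per gene and library, and the study names Ensembl as the source of its genome sequence, while the gene annotation used for counting is not given in the sources used here. Symbols were taken from GENCODE M21. The 27 other samples of the series were not analysed here. Expected counts were rounded and tested with edgeR 4.0.16 (quasi-likelihood, TMM) in R 4.3.3 on genes with 10 counts in as many libraries as the smallest group holds, with Benjamini-Hochberg adjustment over all genes tested and a threshold of 0.05. DESeq2 1.42.0, other scalings, no filter, 1 fit of all 18 libraries, a replicate block and leaving out each library were alternatives. Scripts were tested on simulated data. FPKM ratios in the medians used a pseudocount of 0.1. Members and gene lists were chosen with earlier results of these data known. Named members are those with the largest called changes, up to 8 and 3 in the opposite direction per treatment comparison, 3 each way between controls and 5 per difference of effects. *Dhx37* at L2C and genes named for not passing were chosen after their values were seen.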

Additional observations from a re-analysis of the deposited data

Results flagged for a closer look

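The effect of dTAG13 differed between stages, by a test of the difference on the log2 scale, for 15 of the named results. Between L2C and morula the differences were -1.68 for *Dcaf13*, -1.29 for *Emg1*, -1.28 for *Ltv1*, -1.27 for *Fcf1* and -1.21 for *Utp4*, each more negative at L2C. Between L2C and ICM they were -1.83 for *Pwp2* and -1.01 for *Utp20*, more negative at L2C, and 1.46 for *Utp23*, 1.39 for *Imp3* and 1.27 for *Rrp12*, more negative in the ICM. Between ICM and 2iES cells they were 3.38 for *Wdr3*, 1.52 for *Wdr46*, 1.33 for *Noc4l*, 1.32 for *Utp23* and 1.32 for *Rrp7a*, each more negative in 2iES cells. The time of exposure differs between these stages, and the dose only between 2iES cells and the embryo stages. Neither can be told apart from the stage.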

How the results depend on the processing

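With the study's cut-offs 6 members were lower at L2C, 12 in the ICM (0 higher) and 21 in 2iES cells (1 higher). Members called higher in morulae numbered 1 with library totals, DESeq2 or no filter and 2 with all 18 libraries in 1 fit. Over all genes 40 and 77 of 13667, 175 of 26894 and 464 of 21915 were higher, in that order. In the ICM they numbered 9 with library totals, 10 with upper-quartile scaling and 2 in the fit of all 18. Over all genes 6528 and 6771 of 15840 and 3012 of 21915 were higher. From ICM to 2iES controls library totals gave 22 lower and 9 higher, where 7123 and 3384 of 15660 genes were. Between L2C and morula 10 (no filter) and 13 (all 18) were more negative at L2C, where 1189 of 34670 and 1268 of 21915 genes were. Between ICM and 2iES cells the fit of all 18 gave 3 and 9, where 2176 and 1627 of 21915 genes were called. The median log2 ratio of group means was -0.28 in TPM and -0.26 in FPKM in the ICM, and -0.88 and -0.77 in 2iES cells. The cause was not tested.

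Leaving out 1 library gave 14 to 16 members lower at L2C, 0 to 3 higher in morulae (3 without the second DMSO library), 32 to 33 lower and 4 to 5 higher in the ICM, and 25 to 37 lower and 2 to 7 higher in 2iES cells (2 higher without either dTAG13 library). Between controls it gave 24 to 27 and 4 to 5 (L2C to morula), 3 to 14 and 8 to 23 (morula to ICM), and 7 to 18 and 9 to 22 (ICM to 2iES). Differences of effects gave 4 to 11 lower (L2C and morula), 6 to 11 and 8 to 14 (L2C and ICM), and 2 to 8 and 13 to 27 (ICM and 2iES). From morula to ICM the members lower were 14 without the first morula library and 4 or 3 without an ICM library, which also gave 8 higher. From ICM to 2iES they were 7 (9 higher) without either ICM library and 18 without either 2iES library. The difference between L2C and morula had 11 without the second morula DMSO library. That between L2C and ICM had 6 lower without the second ICM DMSO library and 8 higher without the first DMSO or second dTAG13 library of the ICM. That between ICM and 2iES had 2 or 3 lower without any 1 ICM library, 2 without the first 2iES dTAG13 library and 27 higher without the second 2iES DMSO library. A group left with 1 library was assumed to vary like the others, and the counts over all genes moved with these omissions too.

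Replicate numbers are shared between groups, but the labels do not pair them. Same-numbered libraries correlated at 0.0524, 0.125 and 0.104 at L2C, where each correlated best with its own number, 0.0290 in morulae, -0.0456 in the ICM and -0.233 in 2iES cells. With the replicate block the counts were 17 lower at L2C, 1 higher in morulae, 34 and 4 in the ICM and 30 and 4 in 2iES cells, and with the 2iES numbers crossed, an alternative chosen after seeing the data, 34 and 5. Of the named results none reversed. Of 393 values under settings other than leaving out a library 5 missed the threshold, 4 of them for *Nol6* at L2C and 1 for *Pwp2* in the ICM (fit of all 18, adjusted p = 0.168). The morula libraries were the shallowest, and the biological coefficient of variation was 0.213 in morulae, 0.284 at L2C, 0.159 in 2iES cells and 0.0237 in the ICM.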
